A study of Arabidopsis thaliana with 8 samples.

Results

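The difference between genotypes in the salt response was measured for every gene read by the ATH1 array, an Affymetrix array on which each transcript is read by a probe set, a group of short oligonucleotides. For each probe set it was taken as the interaction, (mean of OE under NaCl minus mean of OE control) minus (mean of wild-type under NaCl minus mean of wild-type control), on the log2 scale. All 8 of the 8 arrays of the series enter it, with 2 arrays in each of 4 groups. The members are 22746 of the 22810 probe sets, all but the 64 that serve as controls of the assay. A positive interaction means that the signal moved further up, or less far down, under NaCl in OE than in wild-type, and a negative one the reverse. An interaction can come from either genotype. The response of each, NaCl minus control, or the array values behind it, is therefore given for many of the genes below.

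RNA came from whole Arabidopsis thaliana seedlings at an age of 14 days, grown in hydroponic MS medium. The 4 groups were OE under NaCl, OE control, wild-type under NaCl and wild-type control, where OE is the genotype labelled OsSHMT, a transgenic Arabidopsis line that overexpresses the rice gene OsSHMT3. The labels and methods give NaCl at 150 mM for 24 h, while a legend of the study gives a lower concentration for the array experiment, and the labels' value is used here. The control groups received none. The methods name 2 different lines as the one hybridized, so which one it was is not settled here, and a single line cannot separate the transgene from other features of that line. The rice transcript has no probe set of its own on an Arabidopsis array, so the overexpression was not checked. The methods speak of biological replicates for the experiments in general and of replicated samples for the arrays, but do not say whether the 2 arrays of a group hold seedlings grown apart. The p-values therefore measure the spread between these samples only, which may be technical. The methods describe RNA in triplicate from another extraction kit than the labels do, while 2 arrays a group were used here.

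Serine hydroxymethyltransferase (SHMT) interconverts serine and glycine, which feeds one-carbon metabolism and, in the mitochondria of leaves, photorespiration. Salt stress restricts water uptake and loads tissues with sodium, and through abscisic acid it induces protective genes, among them those of late embryogenesis abundant (LEA) proteins. Many of these genes belong to the seed maturation programme, in which storage proteins and oil bodies are also laid down, and most of that programme is silent in vegetative tissue.

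Some properties of the arrays moved with genotype and stand beside every result below. The array medians were 6.10 and 6.32 in OE under NaCl, 6.00 and 6.08 in OE control, and 6.27 to 6.33 on the 4 wild-type arrays. The arrays of OE under NaCl stood apart from each other. Over all probe sets they correlated at 0.971, while replicate 1 correlated at 0.972 with an OE control array and replicate 2 at 0.969 with a wild-type array under NaCl. The SD of the difference between replicates, over all probe sets, was 0.55 in OE under NaCl, 0.43 in OE control, 0.12 in wild-type under NaCl and 0.21 in wild-type control. The 3′ minus 5′ signal of the actin control probe sets, which grows as RNA is degraded or incompletely copied, was 2.32 to 2.73 in OE and 4.12 to 4.49 in wild-type. That of 1 pair of GAPDH probe sets was 0.52 and 1.74 in OE under NaCl and 0.24 on both OE control arrays. It was 2.84 and 2.77 in wild-type under NaCl, and 3.12 and 3.33 in wild-type control, so its own interaction was 1.31. A different GAPDH pair averaged 0.61 in both OE groups, 1.25 in wild-type under NaCl and 1.28 in wild-type control, with an interaction of 0.02. Ubiquitin averaged 1.31 in OE under NaCl, 1.43 in OE control, 1.26 in wild-type under NaCl and 1.40 in wild-type control, also with 0.02. The interaction of actin was 0.40. The 25S rRNA probe set averaged 12.37 in OE under NaCl and 12.29 in OE control, against 9.59 in wild-type under NaCl and 9.56 in wild-type control, with an interaction of 0.04. The part of these measures in the results was not tested, and those that differ between genotypes cannot be told apart from genotype.

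Of the 22746 probe sets, 375 had an interaction at an adjusted p under 0.05 in limma (1.65% of those tested), the limit used for every call below. Of these, 279 were positive (1.23%) and 96 were negative (0.422%). On every 1 of the 375, the 4 possible NaCl minus control differences between arrays of OE lay wholly beyond the 4 of wild-type, while over all probe sets they lay wholly above in 17.3% and wholly below in 12.8%. The median interaction over all probe sets was 0.03, and the 1st and 99th percentiles were -1.20 and 1.72. Among positive calls the median was 2.02 with a range of 0.97 to 7.86, and among negative calls it was -1.68 with a range of -0.99 to -6.16. An interaction above 2 was called on 141 probe sets and one below -2 on 29. The median SE of an interaction was 0.26. With 1 array left out, its group holds 1 array and adds nothing to the shared residual variance. The median SE was then 0.22 without an array of OE under NaCl and 0.25 without one of OE control. Without one of wild-type under NaCl it was 0.34, and without one of wild-type control 0.31. Calls in such fits follow which group's spread is left out, so only the interactions themselves are given for them below. An unmoderated linear model, which uses the variance of each probe set alone, gave 185 calls, of which 148 were among the 375.

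**Figure D1:**
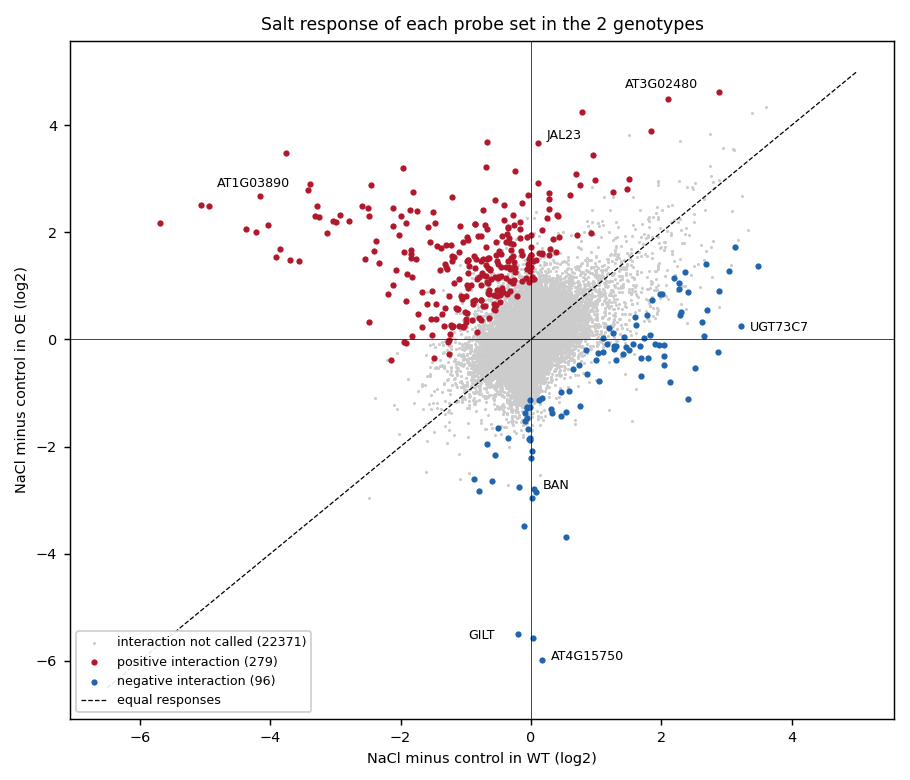
Salt response (NaCl minus control, log2) of 22746 probe sets in OE (vertical) and wild-type (horizontal), with 1 point per probe set; the dashed line marks equal responses. The 279 positive interactions (red) lie above the line, most of them at or left of 0 in wild-type, and the 96 negative ones (blue) form an arm below 0 in OE with little change in wild-type and an arm to the right of 0 in wild-type with little change in OE.

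The positive calls were mainly of probe sets that rose in OE, and a large share of them fell in wild-type. By the calls of each genotype, 233 of the 279 rose under NaCl in OE, where 4.88% of all probe sets rose, and 139 fell in wild-type, where 2.56% of all probe sets fell. Opposite responses, a rise in OE and a fall in wild-type, were called on 95, a rise in OE alone on 128, and a fall in wild-type alone on 44. A further 10 rose in both genotypes and 2 were called in neither. These counts share their arrays with the interaction and describe it, so they are no separate evidence. Both genotypes were called with 1 shared SE per probe set. The SD of replicate differences was 0.55 and 0.43 in the OE groups, against 0.12 and 0.21 in the wild-type groups. No call in wild-type is therefore not a lack of response there, and the split into classes depends on the shared SE. Between genotypes, 109 of the 279 were higher in OE than in wild-type under NaCl and lower in OE than in wild-type in control, and 95 were higher in OE under NaCl with no call in control. Another 53 were lower in OE in control with no call under NaCl. Over all probe sets, OE was higher than wild-type on 4.12% under NaCl and lower on 12% in control.

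The negative calls split into a group that fell in OE and a group that rose in wild-type. Of the 96, 36 fell in OE with no call in wild-type, 43 rose in wild-type with no call in OE, and 2 did both. The shared SE stands behind these calls too, so no call in wild-type is again not a lack of response. A rise in both genotypes, smaller in OE, was called on 13, and a fall in both on 2. In all, 40 fell in OE, where 2.33% of all probe sets fell, and 58 rose in wild-type, where 3.26% rose. Between genotypes, 54 were lower in OE than in wild-type under NaCl only and 20 in both conditions. Of all probe sets, 4.92% were lower under NaCl and 12% in control. Another 17 were higher in OE in control with no call under NaCl, against 8.1% of all probe sets higher in control. Probe sets that name 1 gene gave 124 of the positive and 53 of the negative calls, and the others enter the counts only.

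Most measured genes for storage proteins and oil bodies of seeds were called positive, and 3 of them were among the 14 largest positive interactions of named genes. Of 8 measured members of 23 listed, 7 were called positive and 0 negative, with a median interaction of 3.06 against 0.03 over all probe sets, and the eighth, AT2G18540, had 0.95 (adjusted p = 0.442). Of the 8, 7 rose in OE and 6 fell in wild-type. AT1G03890, a member of that list on chromosome 1 from 989198 to 991020 (TAIR10.1 assembly), read 9.97 and 9.92 in OE under NaCl, 7.43 and 7.10 in OE control, 4.30 and 4.34 in wild-type under NaCl, and 8.36 and 8.59 in wild-type control. Both OE arrays under NaCl lay above all others and both wild-type arrays under NaCl below all others. Its interaction was 6.84 (SE 0.23, adjusted p = 5.16e-05), from a rise of 2.68 in OE and a fall in wild-type with a log2 difference of -4.16. PAP85, a vicilin-like storage protein, read 10.29 and 10.45 in OE under NaCl, 7.99 and 7.86 in OE control, 6.58 and 6.98 in wild-type under NaCl, and 9.28 and 9.30 in wild-type control. The same order of the 4 groups was seen, with an interaction of 4.95 (SE 0.24, adjusted p = 0.000136). AT2G28490, also of the list, read 9.87 and 9.67 in OE under NaCl, 7.64 and 7.47 in OE control, 5.98 and 5.93 in wild-type under NaCl, and 8.66 and 8.84 in wild-type control. Its interaction was 5.01 (SE 0.21, adjusted p = 7.23e-05), with OE under NaCl highest and wild-type under NaCl lowest.

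The remaining called members of the list are genes of oil bodies, the lipid droplets of seeds, and had smaller differences. OLEO3, an oleosin that coats these droplets, read 10.54 and 10.36 in OE under NaCl, 8.91 and 8.98 in OE control, 8.37 and 8.43 in wild-type under NaCl, and 9.11 and 9.17 in wild-type control. It was highest in OE under NaCl and lowest in wild-type under NaCl, and its interaction was 2.23 (SE 0.18, adjusted p = 0.00176). The listed gene AT3G01570 read 10.73 and 10.50 in OE under NaCl, 8.98 and 8.90 in OE control, 7.52 and 7.54 in wild-type under NaCl, and 9.38 and 9.36 in wild-type control, again in that order, with an interaction of 3.51 (SE 0.19, adjusted p = 0.000231). The other members, AT2G25890 and AT3G18570, had interactions of 2.61 (SE 0.30, adjusted p = 0.007) and 1.73 (SE 0.23, adjusted p = 0.015). ICL, the isocitrate lyase of the glyoxylate cycle through which seedlings turn stored oil into sugar, read 7.33 and 7.33 in OE under NaCl, 5.12 and 5.83 in OE control, 4.57 and 4.97 in wild-type under NaCl, and 5.56 and 5.91 in wild-type control. Both arrays of OE under NaCl were above the rest, and the interaction was 2.82 (SE 0.37, adjusted p = 0.0145). With any 1 array left out, the interaction of AT2G25890 ran from 2.29 to 2.92 and that of ICL from 2.47 to 3.17. That of AT3G18570 ran from 1.55 to 1.92. In the unmoderated linear model the calls of AT2G25890, ICL and AT3G18570 ended (adjusted p = 0.0828, 0.127 and 0.0787).

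None of the 11 seed and embryo markers chosen as a check of the tissue has a probe set that names it alone, so they are not analysed here. Of the seed coat markers, BAN and DFR were measured out of 5, and their mean log2 signal was 5.21 and 4.70 in OE under NaCl, 6.96 and 7.08 in OE control, 8.06 and 8.04 in wild-type under NaCl, and 8.10 and 7.81 in wild-type control. Both markers were lowest in OE under NaCl, where 6 of the 7 called storage and oil body genes had their highest mean, while AT2G25890 had its highest in wild-type control. RCA, the leaf marker with a probe set, read 12.5 to 12.8 on all arrays, with an interaction of -0.06. The 3 root markers measured of 5 averaged 6.43 and 6.36 in OE under NaCl, and 6.04 and 5.89 in OE control. They averaged 5.74 and 5.64 in wild-type under NaCl and 5.32 on both arrays of wild-type control, with an interaction of 0.06. That mean spans members that differed, none of them called: PYK10 had 0.59, EXPA7 -0.61 and EXPA18 0.19. PYK10 rose in both genotypes, by 1.92 in OE and by 1.32 in wild-type. In whole seedlings, fewer cells of a type and less RNA per cell cannot be told apart.

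**Figure D2:**
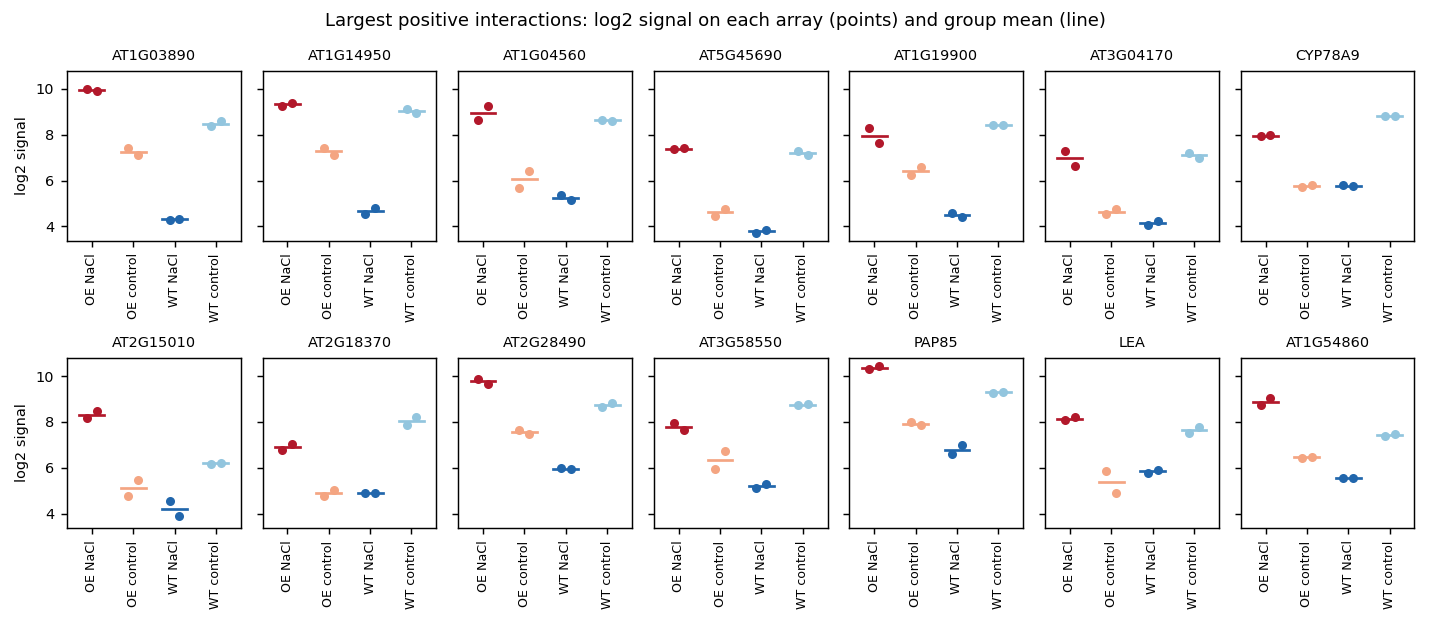
Log2 signal (vertical) of the 14 genes with the largest positive interactions on each of 8 arrays, with 2 points and a mean line for each of OE NaCl, OE control, WT NaCl and WT control. OE under NaCl lies above OE control in all 14, and wild-type under NaCl lies below wild-type control in all 14.

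The 14 largest positive interactions of named genes ran from 4.27 to 6.84. In the unmoderated linear model AT2G15010 (adjusted p = 0.055) and LEA (adjusted p = 0.0676) lost the call, and the others kept it. In all 14, OE was above wild-type under NaCl and below it in control, with each of these differences called. Beside the storage genes they hold CYP78A9, a cytochrome P450 of a family known for acting on organ and seed size, and LEA, a dehydrin. CYP78A9 read 7.93 and 7.99 in OE under NaCl, 5.71 and 5.80 in OE control, 5.79 and 5.77 in wild-type under NaCl, and 8.81 and 8.81 in wild-type control. Its OE control arrays overlapped those of wild-type under NaCl, wild-type control was highest, and its interaction was 5.24 (SE 0.17, adjusted p = 5.16e-05). Both wild-type control arrays hold the same deposited value, 8.81346, so that group adds no spread to this SE. AT1G14950 read 9.26 and 9.39 in OE under NaCl, 7.42 and 7.12 in OE control, 4.52 and 4.81 in wild-type under NaCl, and 9.11 and 8.96 in wild-type control. For this gene OE under NaCl and wild-type control were close to each other, OE control lay between, and wild-type under NaCl was lowest, with an interaction of 6.42 (SE 0.24, adjusted p = 5.56e-05).

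Further genes of this group carry only a locus name here. AT5G45690 read 7.35 and 7.43 in OE under NaCl, 4.46 and 4.76 in OE control, 3.72 and 3.85 in wild-type under NaCl, and 7.28 and 7.12 in wild-type control, with OE above wild-type under NaCl and below it in control, and an interaction of 6.20 (SE 0.22, adjusted p = 5.16e-05). AT2G15010 read 8.16 and 8.48 in OE under NaCl, 4.77 and 5.49 in OE control, 4.54 and 3.92 in wild-type under NaCl, and 6.18 and 6.21 in wild-type control. It was the gene of this group in which OE under NaCl exceeded wild-type control by the most, and its interaction was 5.16 (SE 0.41, adjusted p = 0.00161). The interactions of the others were 6.28 for AT1G04560, 5.45 for AT1G19900, 5.26 for AT3G04170, 5.11 for AT2G18370, 5.01 for AT3G58550 and 4.27 for AT1G54860. Their SEs lay between 0.20 and 0.40.

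Genes of LEA proteins, which protect membranes and enzymes in drying seeds and under water deficit, differed among themselves. Of 38 measured members of 54 listed, 6 were called positive and 2 negative, and the median interaction was 0.08 against 0.03 over all probe sets. In OE 15 rose and 1 fell, where 4.88% of all probe sets rose and 2.33% fell. In wild-type 12 rose and 4 fell, where 3.26% of all probe sets rose and 2.56% fell. The dehydrin LEA read 8.08 and 8.21 in OE under NaCl, 5.88 and 4.92 in OE control, 5.77 and 5.93 in wild-type under NaCl, and 7.53 and 7.79 in wild-type control. Both arrays of OE under NaCl lay above the rest, the OE control arrays had an SD of 0.68, and the interaction was 4.57 (SE 0.42, adjusted p = 0.0028). AtLEA4-1 read 8.61 and 8.60 in OE under NaCl, 5.24 and 5.52 in OE control, 7.81 and 7.75 in wild-type under NaCl, and 8.48 and 8.46 in wild-type control. Its level in OE under NaCl was near that of wild-type control, and the OE control arrays stood far below the other 6, so that the interaction was 3.91 (SE 0.20, adjusted p = 0.000147). AT3G15670 read 7.39 and 7.43 in OE under NaCl, 5.27 and 5.19 in OE control, 5.08 and 5.02 in wild-type under NaCl, and 6.47 and 6.57 in wild-type control, with OE under NaCl highest and an interaction of 3.65 (SE 0.18, adjusted p = 0.000136).

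In AT3G17520 and AT3G02480 the difference between genotypes was called in control and not under NaCl. AT3G17520 read 8.31 and 8.73 in OE under NaCl, 5.35 and 5.49 in OE control, 8.26 and 8.29 in wild-type under NaCl, and 7.68 and 7.49 in wild-type control. OE minus wild-type was 0.25 (adjusted p = 0.415) under NaCl and -2.17 (adjusted p = 0.00108) in control, where OE stood lowest, and the interaction was 2.41 (SE 0.25, adjusted p = 0.00448). AT3G02480 rose in both, and read 11.34 and 12.03 in OE under NaCl, 7.35 and 7.03 in OE control, 11.28 and 11.30 in wild-type under NaCl, and 9.09 and 9.28 in wild-type control. It rose by 4.49 in OE and by 2.11 in wild-type, and its interaction was 2.39 (SE 0.34, adjusted p = 0.0185). OE minus wild-type was 0.40 (adjusted p = 0.348) under NaCl and -1.99 (adjusted p = 0.00386) in control. For AT4G21020 OE minus wild-type was 1.88 (adjusted p = 0.00558) under NaCl and -1.70 (adjusted p = 0.00868) in control, with an interaction of 3.58 (SE 0.37, adjusted p = 0.00448). Well-known members called in both responses were not called in the interaction: LEA4-5 had 0.74 (adjusted p = 0.343), the dehydrin LTI30 0.46 (adjusted p = 0.358), COR47 -0.55 (adjusted p = 0.254) and COR15A -0.53 (adjusted p = 0.309).

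The negative LEA calls came from genes that rose in wild-type. M17 read 3.51 and 3.26 in OE under NaCl, 4.76 and 3.58 in OE control, 5.69 and 6.05 in wild-type under NaCl, and 3.80 and 3.69 in wild-type control. Only the wild-type NaCl arrays were raised, and the OE control arrays had an SD of 0.84. Its interaction was -2.91 (SE 0.50, adjusted p = 0.0432). AT2G23120 read 11.98 and 11.88 in OE under NaCl, 11.87 and 11.74 in OE control, 12.36 and 12.40 in wild-type under NaCl, and 11.07 and 11.17 in wild-type control, with wild-type control lowest, and its interaction was -1.13 (SE 0.18, adjusted p = 0.033). With any 1 array left out, the interaction of AT4G21020 ran from 3.19 to 3.97 and that of AT3G02480 from 2.05 to 2.73. For AT2G23120 it ran from -1.20 to -1.07 and for M17 from -3.51 to -2.32. In the unmoderated linear model the calls of AT4G21020, AT3G17520, AT3G02480 and M17 ended (adjusted p = 0.0795, 0.0576, 0.133 and 0.206). Median centring ended the call of AT2G23120 (adjusted p = 0.0531).

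Among genes of abscisic acid and osmotic stress, 1 of 5 measured of 24 listed was called. This was AT2G38905, which the study describes as responsive to low temperature and salt. It read 8.20 and 8.56 in OE under NaCl, 5.31 and 6.14 in OE control, 5.51 and 5.73 in wild-type under NaCl, and 6.67 and 7.0 in wild-type control. OE under NaCl was above all other arrays, and the interaction was 3.87 (SE 0.41, adjusted p = 0.00493). It ran from 3.46 to 4.28 with any 1 array left out. Its call ended in the unmoderated linear model (adjusted p = 0.0855). In proline metabolism 0 of 2 measured were called. AT5G38710, a proline dehydrogenase, had an interaction of 1.54 (adjusted p = 0.101) and rose in both genotypes, by 2.67 in OE and by 1.12 in wild-type. DELTA-OAT, an ornithine aminotransferase, had an interaction of 0.67 (adjusted p = 0.198).

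**Figure D3:**
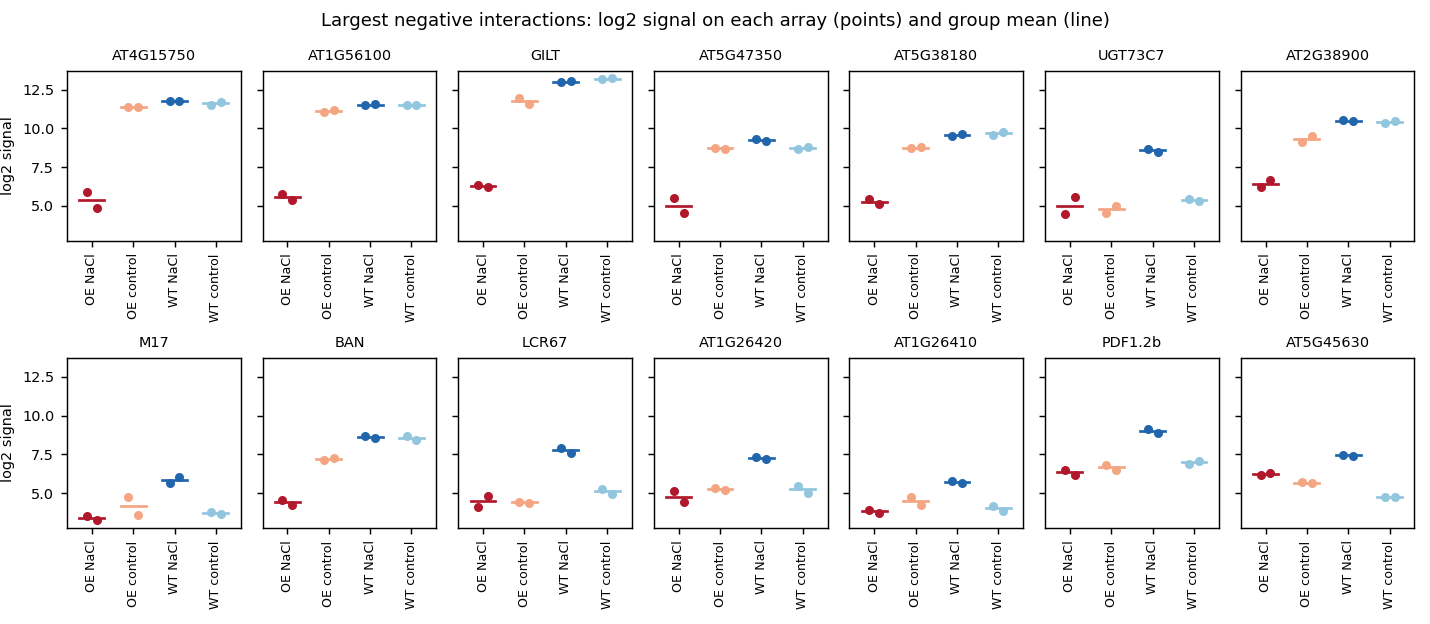
Log2 signal (vertical) of the 14 genes with the largest negative interactions on each of 8 arrays, with 2 points and a mean line for each of OE NaCl, OE control, WT NaCl and WT control. In AT4G15750, AT1G56100, GILT, AT5G47350, AT5G38180, AT2G38900 and BAN only the OE NaCl arrays drop, and in the other 7 the WT NaCl arrays are raised.

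The largest negative interactions came from genes at a high level on 6 arrays that dropped on both OE arrays under NaCl. AT4G15750, on chromosome 4 from 8967519 to 8968615, read 5.92 and 4.87 in OE under NaCl, 11.41 and 11.37 in OE control, 11.78 and 11.80 in wild-type under NaCl, and 11.51 and 11.73 in wild-type control. Wild-type under NaCl did not lie below wild-type control, and the interaction was -6.16 (SE 0.43, adjusted p = 0.000874). AT1G56100 read 5.75 and 5.35 in OE under NaCl, 11.06 and 11.18 in OE control, 11.52 and 11.56 in wild-type under NaCl, and 11.53 and 11.49 in wild-type control, with only OE under NaCl low, and an interaction of -5.60 (SE 0.23, adjusted p = 7.23e-05). GILT, annotated as a gamma-interferon-responsive lysosomal thiol reductase, read 6.36 and 6.21 in OE under NaCl, 11.95 and 11.61 in OE control, 12.99 and 13.05 in wild-type under NaCl, and 13.20 and 13.23 in wild-type control. Both arrays of OE under NaCl lay far below all others, with a log2 difference of -5.49 from OE control. Its interaction was -5.30 (SE 0.22, adjusted p = 7.43e-05), against a wild-type response of -0.19.

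BAN, the anthocyanidin reductase that makes precursors of seed coat tannins, followed the same pattern. It read 4.56 and 4.25 in OE under NaCl, 7.13 and 7.27 in OE control, 8.68 and 8.59 in wild-type under NaCl, and 8.72 and 8.46 in wild-type control. OE under NaCl lay below OE control, which lay below all 4 wild-type arrays, and the interaction was -2.83 (SE 0.23, adjusted p = 0.00176). DFR, an earlier enzyme of the flavonoid pathway, fell in OE with a log2 difference of -1.35 and an interaction of -1.50 (adjusted p = 0.109). BAN was the only call among 5 measured flavonoid genes of 18 listed. AT5G47350 read 5.49 and 4.54 in OE under NaCl, 8.76 and 8.66 in OE control, 9.31 and 9.21 in wild-type under NaCl, and 8.66 and 8.78 in wild-type control. Its arrays of OE under NaCl had an SD of 0.67 and both lay below the other 6, and its interaction was -4.23 (SE 0.40, adjusted p = 0.00313). AT5G38180 and AT2G38900 had interactions of -3.38 (SE 0.21, adjusted p = 0.00052) and -2.93 (SE 0.29, adjusted p = 0.0041). Of the 7 genes of this pattern, AT5G47350 (adjusted p = 0.0693) and AT2G38900 (adjusted p = 0.0663) lost the call in the unmoderated linear model.

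Defence genes made up part of the negative calls that came from wild-type. Of 16 measured defensins, thionins and osmotin-like proteins, 4 were called negative and 1 positive, with a median interaction of 0.05. LCR67 (PDF1.1), a plant defensin, which is a small antimicrobial protein, read 4.10 and 4.83 in OE under NaCl, 4.45 and 4.36 in OE control, 7.93 and 7.62 in wild-type under NaCl, and 5.27 and 4.97 in wild-type control. Wild-type under NaCl alone was raised, and the interaction was -2.59 (SE 0.36, adjusted p = 0.0182). PDF1.2b, a defensin known as a jasmonate marker, read 6.53 and 6.18 in OE under NaCl, 6.82 and 6.50 in OE control, 9.17 and 8.87 in wild-type under NaCl, and 6.88 and 7.09 in wild-type control on a probe set that can cross-hybridize with close relatives. Again only wild-type under NaCl was raised, with an interaction of -2.34 (SE 0.28, adjusted p = 0.00908), while PDF1.2, measured by its own probe set, had -1.28 (adjusted p = 0.302). OSM34, an osmotin related to thaumatin, read 7.12 and 7.48 in OE under NaCl, 7.48 and 7.30 in OE control, 8.17 and 8.28 in wild-type under NaCl, and 6.34 and 6.31 in wild-type control. Wild-type under NaCl was highest and wild-type control lowest, and the interaction was -1.99 (SE 0.23, adjusted p = 0.00771).

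The other calls of that list differed in their pattern. THI2.1, a thionin, read 7.97 and 8.25 in OE under NaCl, 9.75 and 9.51 in OE control, 9.44 and 9.46 in wild-type under NaCl, and 9.57 and 9.53 in wild-type control. Only OE under NaCl was low, and the interaction was -1.42 (SE 0.22, adjusted p = 0.0263). PDF2.1, another defensin, had the opposite sign, and read 8.43 and 9.28 in OE under NaCl, 7.52 and 7.17 in OE control, 7.63 and 7.38 in wild-type under NaCl, and 9.33 and 9.19 in wild-type control. OE control and wild-type under NaCl were the lower groups, with an interaction of 3.26 (SE 0.40, adjusted p = 0.0102). With any 1 array left out, the interactions of all the called genes of the list kept their sign. They ran from -2.96 to -2.23 for LCR67, -2.51 to -2.17 for PDF1.2b and -2.17 to -1.81 for OSM34. For THI2.1 they ran from -1.56 to -1.29 and for PDF2.1 from 2.84 to 3.69. In the unmoderated linear model all of these calls ended, with an adjusted p of 0.136 for LCR67, 0.0855 for PDF1.2b and 0.0621 for OSM34. It was 0.0882 for THI2.1 and 0.115 for PDF2.1.

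Other negative calls by the same wild-type rise belonged to several families. UGT73C7, of the UDP-glycosyltransferases that attach sugars to small molecules, read 4.45 and 5.59 in OE under NaCl, 4.54 and 4.99 in OE control, 8.67 and 8.49 in wild-type under NaCl, and 5.43 and 5.29 in wild-type control. Wild-type under NaCl stood alone above the rest, and the arrays of OE under NaCl had an SD of 0.80, with an interaction of -2.96 (SE 0.49, adjusted p = 0.0379). It was the only call among 47 measured members of its family, whose median was 0.10, where 1.65% of all probe sets were called. WSD1, a wax ester synthase of the stem surface, read 5.51 and 5.34 in OE under NaCl, 5.90 and 5.65 in OE control, 7.36 and 7.29 in wild-type under NaCl, and 5.64 and 5.63 in wild-type control. Its rise was seen in wild-type only, with an interaction of -2.04 (SE 0.20, adjusted p = 0.0041). With any 1 array left out the interaction ran from -2.17 to -1.92. AT5G45630 read 6.17 and 6.29 in OE under NaCl, 5.70 and 5.67 in OE control, 7.49 and 7.40 in wild-type under NaCl, and 4.74 and 4.75 in wild-type control. It rose in both genotypes, by 0.55 in OE and by 2.70 in wild-type, and its interaction was -2.15 (SE 0.18, adjusted p = 0.00176). The neighbours AT1G26410 and AT1G26420 on chromosome 1 had interactions of -2.37 (SE 0.29, adjusted p = 0.00974) and -2.52 (SE 0.34, adjusted p = 0.0165).

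Smaller negative interactions were called for 5 further genes with a symbol. GH3.17, which conjugates auxin to amino acids, had -1.68 (SE 0.24, adjusted p = 0.0189). XTH19, which remodels xyloglucan in the cell wall, had -1.82 (SE 0.29, adjusted p = 0.0318), and it was the only call of 27 measured expansins and xyloglucan enzymes. AER, an alkenal reductase that removes reactive carbonyls, had -1.18 (SE 0.19, adjusted p = 0.0361). None of these was called in OE, with log2 differences of -0.38, -0.78 and 0.42, and all rose in wild-type, by 1.30, 1.04 and 1.59. The vacuolar processing enzyme DELTA-VPE, known from the seed coat, and the serine carboxypeptidase-like scpl20 fell in OE, with log2 differences of -1.26 and -1.47 and interactions of -1.24 (SE 0.20, adjusted p = 0.0351) and -1.40 (SE 0.18, adjusted p = 0.0129). With any 1 array left out, the interaction of UGT73C7 ran from -3.53 to -2.40 and that of AT1G26420 from -2.85 to -2.19. For AT1G26410 it ran from -2.62 to -2.13, for XTH19 from -2.08 to -1.56 and for GH3.17 from -1.85 to -1.52. For scpl20 it ran from -1.47 to -1.33, for DELTA-VPE from -1.36 to -1.12 and for AER from -1.30 to -1.06. In the unmoderated linear model the calls of UGT73C7, AT1G26420 and AT1G26410 ended (adjusted p = 0.199, 0.129 and 0.0902). So did those of GH3.17, XTH19 and DELTA-VPE (0.0948, 0.151 and 0.0829), and that of AER. UGT73C7 also lost the call under quantile normalization (adjusted p = 0.0603), and AER and DELTA-VPE lost it under median centring (0.062 and 0.0555).

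**Figure D4:**
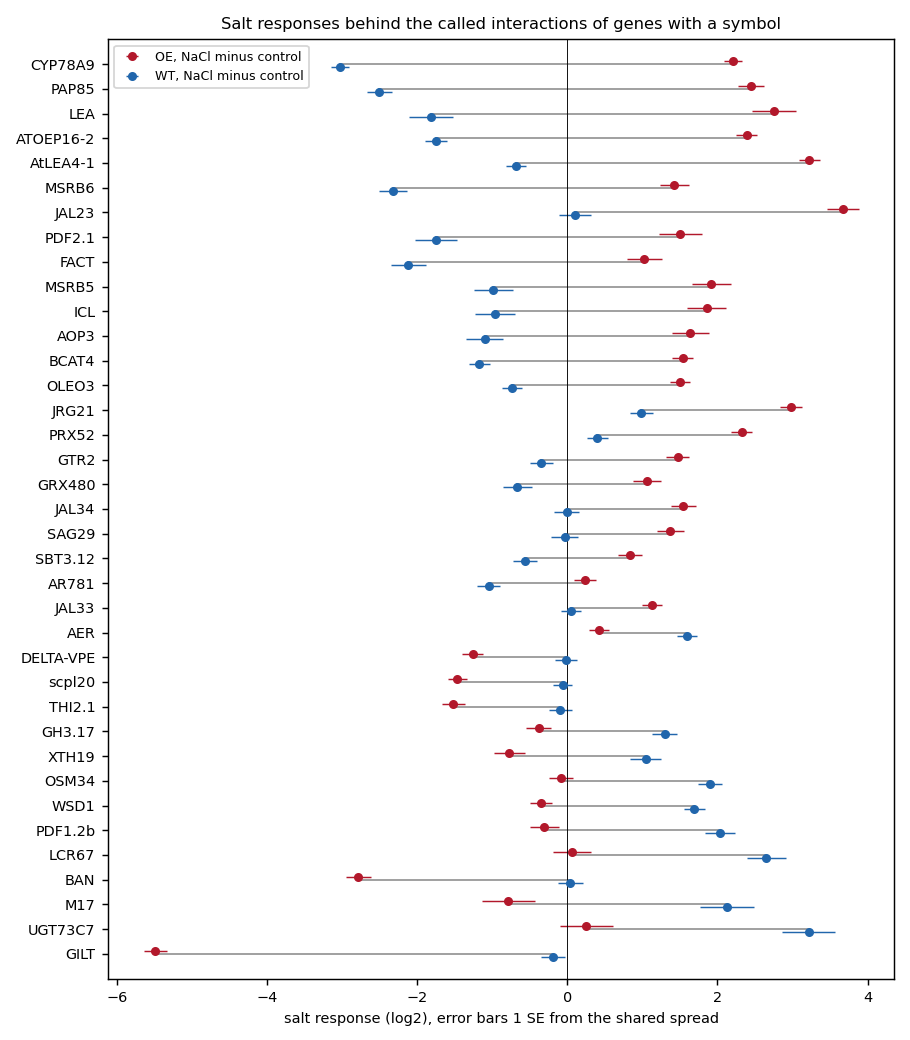
Salt response (NaCl minus control, log2, with bars of 1 SE) in OE (red) and wild-type (blue) of the 37 genes with a symbol and a called interaction, 23 positive above and 14 negative below, ordered by interaction. The grey line between the points is the interaction, longest for GILT and CYP78A9.

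Glucosinolates are sulfur compounds of Brassicaceae, one class of which is made from methionine. The list of its genes was drawn up after the values were seen, as were those of lectins, methionine sulfoxide reductases, the glyoxylate cycle, organelle genes, subtilases, vacuolar processing enzymes and wax ester synthases. Of 5 measured genes of methionine-derived glucosinolates of 19 listed, 3 were called positive and 0 negative, with a median interaction of 1.82. BCAT4, the aminotransferase that opens the elongation of the methionine chain, read 10.41 and 10.65 in OE under NaCl, 8.98 and 9.01 in OE control, 9.93 and 9.86 in wild-type under NaCl, and 11.07 and 11.07 in wild-type control. It rose in OE and fell in wild-type, with OE control lowest, and its interaction was 2.71 (SE 0.19, adjusted p = 0.000874). AOP3, a side chain modifying enzyme, read 7.08 and 7.80 in OE under NaCl, 5.84 and 5.76 in OE control, 5.67 and 5.52 in wild-type under NaCl, and 6.86 and 6.53 in wild-type control, with an interaction of 2.74 (SE 0.35, adjusted p = 0.0122). GTR2, a glucosinolate transporter, read 9.48 and 9.65 in OE under NaCl, 8.17 and 8.02 in OE control, 8.06 and 8.10 in wild-type under NaCl, and 8.57 and 8.28 in wild-type control. OE under NaCl alone was raised, with an interaction of 1.82 (SE 0.22, adjusted p = 0.00916), while its paralogue GTR1 had 1.51 (adjusted p = 0.298) and AT2G31790 0.51 (adjusted p = 0.43). With any 1 array left out, the interaction of AOP3 ran from 2.38 to 3.10 and that of GTR2 from 1.67 to 1.97. Both calls ended in the unmoderated linear model (adjusted p = 0.115 and 0.0589).

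Methionine sulfoxide reductases of class B repair oxidized methionine in proteins, and 2 of 4 measured were called, both positive, with a median interaction of 2.37. MSRB6 read 7.89 and 8.33 in OE under NaCl, 6.68 and 6.69 in OE control, 5.78 and 5.74 in wild-type under NaCl, and 8.26 and 7.92 in wild-type control. Wild-type under NaCl was lowest, and the interaction was 3.75 (SE 0.27, adjusted p = 0.000874). MSRB5, its neighbour on chromosome 4, read 9.0 and 9.52 in OE under NaCl, 7.01 and 7.69 in OE control, 8.44 and 8.45 in wild-type under NaCl, and 9.37 and 9.51 in wild-type control. OE control was lowest, and the interaction was 2.90 (SE 0.37, adjusted p = 0.0121). It ran from 2.56 to 3.24 with any 1 array left out, and its call ended in the unmoderated linear model (adjusted p = 0.117). MSRB9 had 1.84 (adjusted p = 0.241). In the list of methionine and S-adenosylmethionine enzymes 0 of 6 measured were called, with a median of 0.08. Among photorespiration genes, the pathway in which SHMT acts, 0 of 5 measured were called, and their interactions ran from -0.54 to 0.44. The SHMT genes of Arabidopsis have no probe set that names them alone and are not analysed here.

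Jacalin-related lectins, proteins that bind sugars, some of which bind myrosinases or beta-glucosidases in Arabidopsis, gave 3 positive calls of 4 measured, with a median interaction of 1.31. JAL23 read 7.96 and 8.45 in OE under NaCl, 4.59 and 4.47 in OE control, 4.90 and 4.96 in wild-type under NaCl, and 5.03 and 4.63 in wild-type control. The arrays of OE under NaCl stood far above all 6 others, which overlapped, and the interaction was 3.57 (SE 0.30, adjusted p = 0.00176). JAL34 read 9.17 and 9.39 in OE under NaCl, 7.58 and 7.89 in OE control, 7.69 and 7.83 in wild-type under NaCl, and 7.83 and 7.72 in wild-type control, with only OE under NaCl raised and an interaction of 1.56 (SE 0.23, adjusted p = 0.0231). JAL33 had 1.07 (SE 0.19, adjusted p = 0.0474) and JAL22 0.97 (adjusted p = 0.521). With any 1 array left out, the interaction of JAL34 ran from 1.40 to 1.71 and that of JAL33 from 0.97 to 1.17. The call of JAL34 ended in the unmoderated linear model (adjusted p = 0.0982), as did that of JAL33. The call of JAL33 also ended under quantile normalization (adjusted p = 0.142) and median centring (0.15), each of which left 2 of the 3 calls. PYK10, a root beta-glucosidase of endoplasmic reticulum bodies, had 0.59 (adjusted p = 0.481), and 0 of 21 beta-glucosidases and myrosinases were called.

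The other positive calls of genes with a symbol rose in OE, apart from AR781. ATOEP16-2, a protein of the plastid outer envelope, read 7.43 and 7.39 in OE under NaCl, 5.06 and 4.99 in OE control, 4.96 and 4.96 in wild-type under NaCl, and 6.86 and 6.56 in wild-type control. OE under NaCl was highest, OE control and wild-type under NaCl were close, and the interaction was 4.14 (SE 0.20, adjusted p = 0.000136). JRG21, a jasmonate-regulated gene, read 10.09 and 9.93 in OE under NaCl, 6.88 and 7.18 in OE control, 8.97 and 8.97 in wild-type under NaCl, and 7.92 and 8.06 in wild-type control. It rose by 2.98 in OE and by 0.98 in wild-type, with an interaction of 2.0 (SE 0.22, adjusted p = 0.00546). PRX52, a class III peroxidase of lignin formation, read 8.14 and 8.24 in OE under NaCl, 6.00 and 5.73 in OE control, 5.81 and 5.77 in wild-type under NaCl, and 5.36 and 5.42 in wild-type control. OE under NaCl stood above all other arrays, with an interaction of 1.92 (SE 0.20, adjusted p = 0.00493), and it was the only call of 5 measured peroxidases. SAG29 (SWEET15), a sugar transporter of senescing leaves, read 8.48 and 8.86 in OE under NaCl, 7.26 and 7.34 in OE control, 8.36 and 8.33 in wild-type under NaCl, and 8.53 and 8.22 in wild-type control, with OE control lowest and an interaction of 1.41 (SE 0.25, adjusted p = 0.049), 1 call among 15 SWEET genes. FACT, which makes caffeoyl esters of suberin-associated waxes, had 3.15 (SE 0.33, adjusted p = 0.00493). It rose by 1.02 in OE and fell in wild-type, with a log2 difference of -2.12. GRX480, a glutaredoxin, had 1.73 (SE 0.27, adjusted p = 0.028) and the subtilase SBT3.12 1.40 (SE 0.22, adjusted p = 0.0305). AR781 had a log2 difference of 0.24 in OE and fell in wild-type, with -1.05, and its interaction was 1.29 (SE 0.21, adjusted p = 0.0355).

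Of these, ATOEP16-2, JRG21 and PRX52 kept the call in the unmoderated linear model. FACT, SAG29, GRX480, SBT3.12 and AR781 lost it (adjusted p = 0.0782, 0.16, 0.131, 0.102 and 0.0958). With any 1 array left out, the interaction of JRG21 ran from 1.85 to 2.14 and that of PRX52 from 1.78 to 2.06. For FACT it ran from 2.80 to 3.50 and for SAG29 from 1.21 to 1.60. For GRX480 it ran from 1.46 to 1.99, for SBT3.12 from 1.23 to 1.58 and for AR781 from 1.14 to 1.43.

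**Figure D5:**
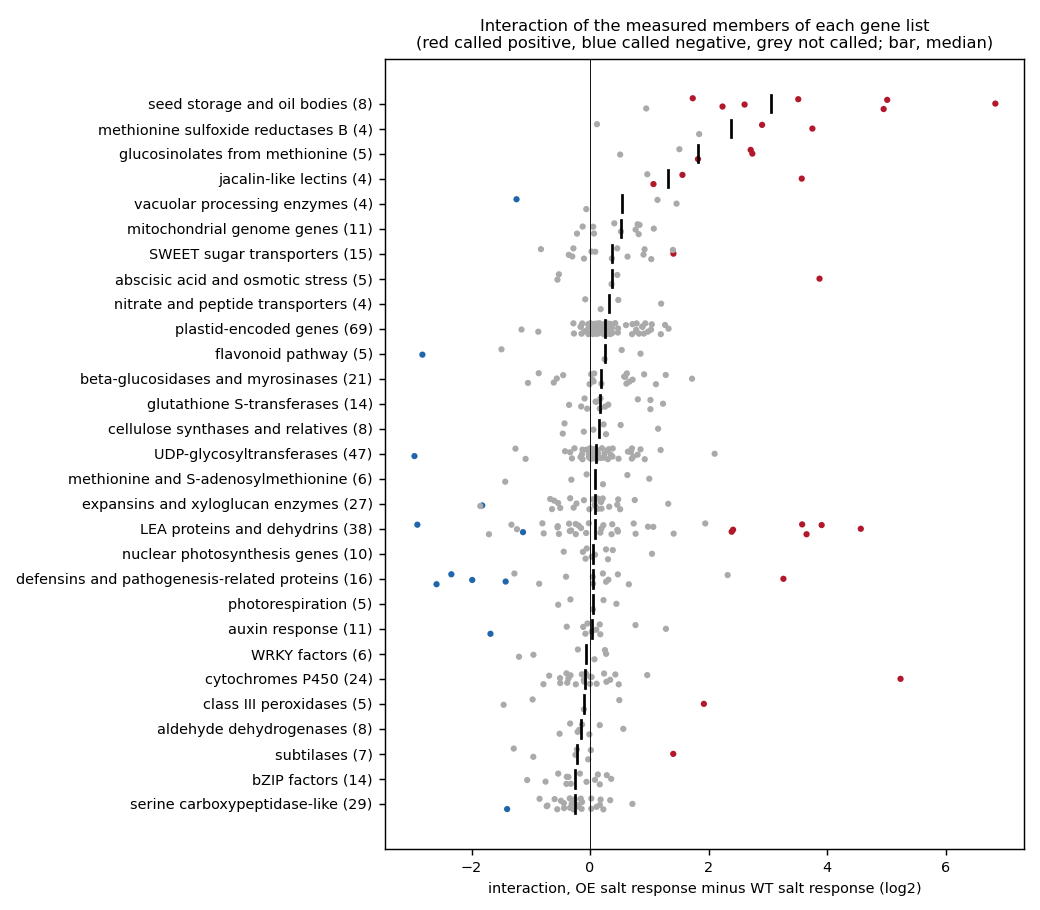
Interaction (log2, horizontal) of each measured member of the gene lists with at least 4 measured members (count in brackets), with called members in red (positive) or blue (negative), the others in grey, and a bar at each median. Seed storage and oil bodies stand furthest right with a median of 3.06, and the large families lie around 0.

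The organelle genome lists held no call, and the remaining families held 0 or 1. Beside these counts, and those of the families above, stands the 1.65% called over all probe sets. The median over all probe sets was 0.03 and the 75th percentile 0.30. Of 69 plastid-encoded genes 0 were called, with a median interaction of 0.25 and a range of -1.16 to 1.32, and of 11 mitochondrial genes 0 were called, with a median of 0.52, above that percentile, and 9 of them positive in sign. Nuclear genes of photosynthesis had 0 calls of 10 and a median of 0.05. Glutathione S-transferases (14 measured), bZIP factors (14), cellulose synthase relatives (8), aldehyde dehydrogenases (8) and WRKY factors (6) had 0 calls, and their medians lay between -0.25 and 0.17. Cytochromes P450 had 1 call, CYP78A9, of 24, with a median of -0.09, and serine carboxypeptidase-like genes had 1 of 29, with a median of -0.26.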

How the data were processed

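Expression was measured in whole seedlings on 8 ATH1 arrays, 2 in each of 4 groups taken from the labels. The authors scanned the arrays and deposited 1 log2 value per probe set and array, and per the labels these were made with Affymetrix Expression Console, whose version and summarization method are not given in the sources used here. The deposited log2 values were used without further normalization, and 0 columns were left unused. After 64 control probe sets were left out, the interaction was fitted with limma 3.58.1 in R 4.3.3, as a contrast of 4 group means whose residual variance was estimated over all 8 arrays. Benjamini-Hochberg adjustment ran over 22746 probe sets, and calls were made at an adjusted p under 0.05.

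Probe sets were named by the platform annotation and TAIR10.1. Of them 13513 name 1 gene, of which 13484 have a locus tag, 503 name several and 8730 none. Listed genes read only by shared or unnamed probe sets were taken as not measured. Lists of lipid transfer and ribosomal proteins had 0 measured members.

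The genes named are the 14 largest positive and the 14 largest negative interactions among called probe sets that name 1 gene and whose array differences do not overlap between genotypes, and called members of gene lists. Other called genes with a symbol were added after their values were seen. Members and lists were chosen with earlier results of these data known. Genes that a list's name pattern had caught by mistake, such as peptide deformylases and cyclophilins, were removed after the values were seen.

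The fit was run on simulated data with planted interactions, where only the median estimate was checked against the planted size. The share recovered and the false calls under unequal spread were not checked and are not reported here. Alternatives were quantile normalization, median centring, an intensity trend, robust and unmoderated fits, array weights, filters on low signal, a replicate block, each array left out in turn and other limits.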

Additional observations from a re-analysis of the deposited data

Results flagged for a closer look

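The salt response differed between OE and wild-type on 375 probe sets, by the test of the interaction itself in limma at an adjusted p under 0.05. The values below are log2 interactions, OE response minus wild-type response, of the named genes among them.

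The higher positive ones were AT1G03890 6.84, AT1G14950 6.42, AT1G04560 6.28, AT5G45690 6.20, AT1G19900 5.45, AT3G04170 5.26, CYP78A9 5.24, AT2G15010 5.16, AT2G18370 5.11, AT2G28490 5.01, AT3G58550 5.01, PAP85 4.95, LEA 4.57, AT1G54860 4.27 and ATOEP16-2 4.14. Next in size were AtLEA4-1 3.91, AT2G38905 3.87, MSRB6 3.75, AT3G15670 3.65, AT4G21020 3.58, JAL23 3.57, AT3G01570 3.51, PDF2.1 3.26, FACT 3.15, MSRB5 2.90, ICL 2.82, AOP3 2.74, BCAT4 2.71, AT2G25890 2.61 and AT3G17520 2.41. The smallest positive ones were AT3G02480 2.39, OLEO3 2.23, JRG21 2.0, PRX52 1.92, GTR2 1.82, AT3G18570 1.73, GRX480 1.73, JAL34 1.56, SAG29 1.41, SBT3.12 1.40, AR781 1.29 and JAL33 1.07.

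The negative ones, from the most negative, were AT4G15750 -6.16, AT1G56100 -5.60, GILT -5.30, AT5G47350 -4.23, AT5G38180 -3.38, UGT73C7 -2.96, AT2G38900 -2.93, M17 -2.91, BAN -2.83, LCR67 -2.59 and AT1G26420 -2.52. Those closer to 0 were AT1G26410 -2.37, PDF1.2b -2.34, AT5G45630 -2.15, WSD1 -2.04, OSM34 -1.99, XTH19 -1.82, GH3.17 -1.68, THI2.1 -1.42, scpl20 -1.40, DELTA-VPE -1.24, AER -1.18 and AT2G23120 -1.13. No explanation for these differences was tested.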

How the results depend on the processing

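Of the 65 named genes, 32 kept the call with any 1 array left out, and 27 of these lost it under no other fit tried. The filters on low signal left out some named genes, which have no fit there. Such an absence was not counted as a lost call, so the 27 may include genes not tested under a filter. No named interaction changed sign: of 1148 refits of the named genes, 940 stayed on the same side of the limit and 208 lost the call. With 1 array left out the calls ran from 122 to 2294 (positive 104 to 1453, negative 18 to 841), lowest without replicate 2 of wild-type under NaCl and highest without replicate 1 of OE under NaCl. The median SE was 0.34 without an array of wild-type under NaCl and 0.22 without one of OE under NaCl, against 0.26 with all arrays. An unmoderated linear model gave 185 calls (137 positive, 48 negative), of which 148 were among the 375. At an adjusted p under 0.01 they numbered 159 (133 and 26). The limit in the study's methods, P under 0.05 and a log2 difference over 2, was applied to the interaction with unadjusted p. It gave 198 (159 and 39). The study counted genes of each genotype against its own control, so its counts are not comparable with this number. Median centring moved the median interaction of all probe sets to -0.11, from 0.03, and left 320 of the 375 calls among its 365. The remaining planned settings gave 286 to 456 calls.

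The replicate number as a replicate block gave 286 calls (220 positive, 66 negative), 280 of them among the 375. The numbers share no stated culture or day, and the correlations of deviations between same-numbered arrays ran from -0.20 to 0.18, so the numbers were not taken to pair the arrays. With the block 54 of the 65 named genes were called. Those that lost the call were GRX480, SAG29, SBT3.12, AR781, JAL33, AT2G23120, AER, DELTA-VPE, THI2.1, XTH19 and M17.

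The 2 arrays a group limit the precision. Replicates of OE spread more than those of wild-type, so the shared spread rests mostly on OE.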
